A study of Homo sapiens with 12 samples.

Results

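The comparison described here set survivors of repeated acidified bile exposure that carried an APE1-directed hairpin against survivors that carried no vector. It used 6 of the 12 libraries in the series: 3 of rABS and 3 of rABS+shAPE1 (shAPE1 below). The cells were OE33, an established line from an esophageal adenocarcinoma. Both groups came from cultures that had been dosed daily, on each of 15 days, with 200 µM bile salts brought to pH 5.5, for 20 minutes each time. The shAPE1 cells were afterwards transduced stably with an APE1-targeted short hairpin RNA, and the rABS cells were not transduced. A further 3 libraries of survivors with a non-targeting hairpin (rABS+shCtrl, shCtrl below) served to sort the genes, because shAPE1 and rABS differ both by a vector with its handling and by the hairpin it carries. Untreated OE33 (Parental, 3 libraries) entered the model and is quoted only as a level. With 1 APE1-targeted hairpin in the labels, effects of APE1 loss and of the hairpin's other targets cannot be told apart. The same holds for differences that arose while each transduced population was made and cultured.

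APE1, encoded by APEX1, cuts DNA at sites that have lost a base, the central step of base excision repair after a glycosylase has removed the damaged base. It also acts as a redox factor, keeping several transcription factors, AP-1 and NF-kB subunits among them, in a reduced state that binds DNA. Reflux of acid and bile salts causes oxidative DNA damage in the esophagus, and esophageal adenocarcinoma arises in the columnar epithelium that replaces the squamous lining there. A short hairpin RNA is processed into a small RNA that lowers matching transcripts, and a non-targeting hairpin controls for the vector, selection and load on the small RNA machinery.

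The 6 libraries held 15767284 to 19477393 counts. Libraries of the same group correlated at 0.9873 or more in log2 CPM, the count scaled to library size and composition. The labelled epithelial type was checked on 10 markers, all of which were detected, with a summed level of 14490 to 17243 CPM in rABS and 13184 to 13770 in shAPE1. Fibroblast markers summed to 3.53 to 4.22 CPM in rABS and 7.50 to 8.36 in shAPE1, with COL1A1 the highest and COL3A1, DCN, LUM, PDGFRA and POSTN at 0 in all 6 libraries. Leukocyte markers summed to 9.44 to 13.7 and 12.1 to 14.5 CPM, with CD14 the highest and CD3D, CD3E and MS4A1 at 0. Endothelial markers summed to 0.821 to 1.68 CPM in rABS and 0.514 to 0.761 in shAPE1. The mitochondrial share of counts was 2.69% to 3.65% in rABS and 3.13% to 4.22% in shAPE1, and its part in the results was not tested.

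APEX1 (chromosome 14, 20455191 to 20457772, plus strand, GRCh38) stood at 81.8, 84.5 and 79.9 CPM in rABS and at 4.42, 4.50 and 5.88 CPM in shAPE1. The groups did not overlap, and every shAPE1 library was far below every rABS library. The fall was 16.7-fold (log2 change -4.06 ± 0.11, standard error, n = 3 per group, edgeR adjusted p = 9.16e-24). An exact two-sided permutation test gave p = 0.1, the smallest value that 20 arrangements of the 6 libraries allow. In shCtrl the level was 62.0, 56.5 and 60.9 CPM, 1.37-fold below rABS (adjusted p = 3.75e-05). Measured against untransduced survivors, the depletion therefore includes a smaller difference that was already present with the control hairpin.

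**Figure D1:**
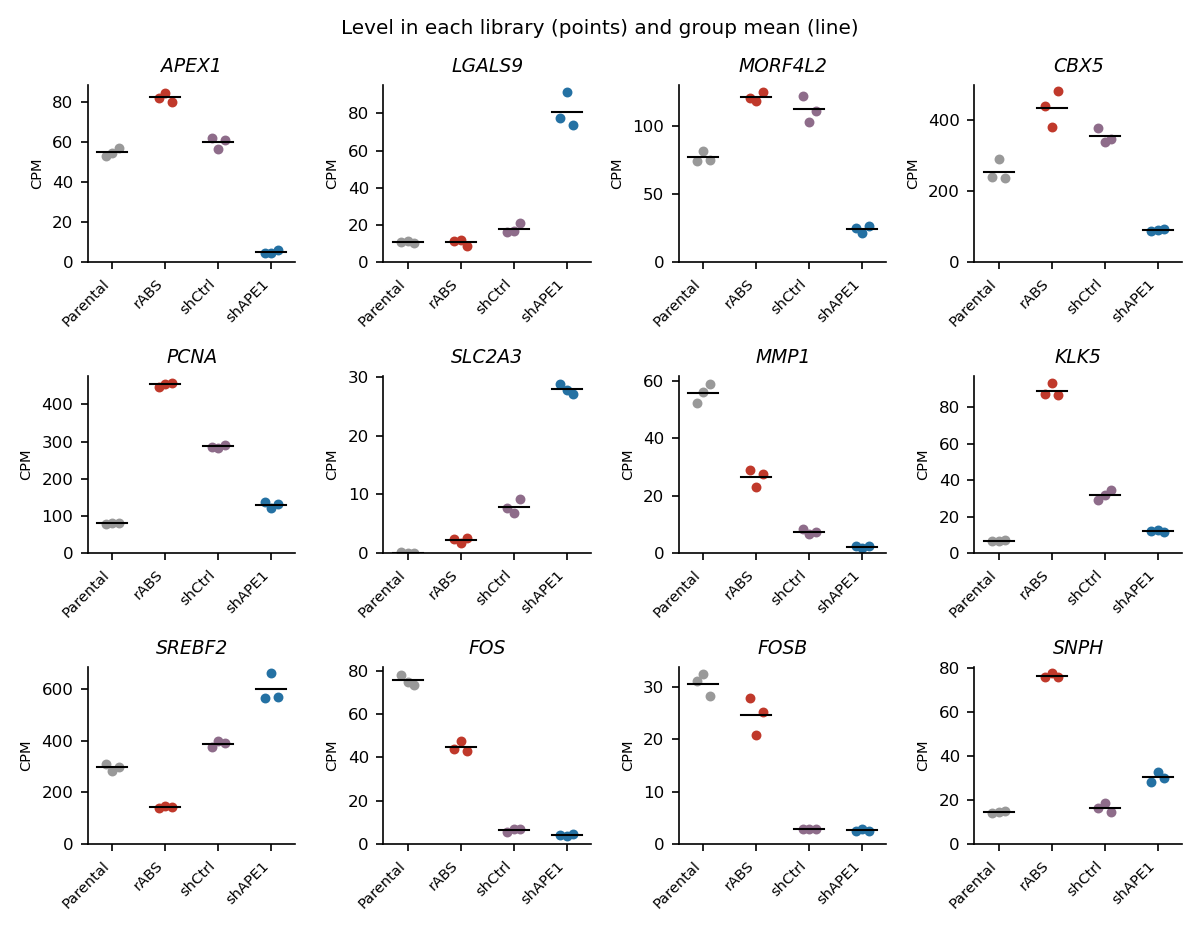
Level of 12 genes in each library (points, CPM on a linear axis from 0) with the mean of each group of 3 (line), for untreated cells (Parental), survivors (rABS) and survivors with the control (shCtrl) or APE1 (shAPE1) hairpin. APEX1, LGALS9, MORF4L2 and CBX5 have shCtrl near rABS, PCNA, SLC2A3, MMP1, KLK5 and SREBF2 have it between, FOS and FOSB have it near shAPE1, and SNPH is lowest of the 3 exposed groups in shCtrl.

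Survivors with the APE1 hairpin differed from untransduced survivors across a large share of the genes measured. Of 15805 genes tested, 50.0% were called at an adjusted p under 0.05, with 3758 (23.8%) higher and 4138 (26.2%) lower in shAPE1. At least 2-fold changes were seen in 1742 genes (11.0%), of which 851 rose (5.38%) and 891 fell (5.64%). The 3 rABS and 3 shAPE1 libraries did not overlap for 56.0% of all genes tested. The balance turned with the scaling: upper-quartile factors gave 4301 rises and 3586 falls. By the same model 5767 genes (36.5%) were called in shCtrl against rABS, and 5784 (36.6%) in shAPE1 against shCtrl. These 3 comparisons share libraries pairwise, so their counts are given side by side only.

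The 1742 genes were then sorted by where the shCtrl level lay on the way from rABS to shAPE1. The position is the log2 difference of shCtrl from rABS divided by that of shAPE1 from rABS: 0 places shCtrl level with rABS, and 1 places it level with shAPE1. In 486 genes (27.9%) shCtrl was level with rABS (position from -0.3 to 0.3), so that most of the log2 difference lay between the hairpins. In 508 (29.2%) it was level with shAPE1 (0.7 to 1.3), so that most of the log2 difference lay between rABS and shCtrl. The largest class, 692 genes (39.7%), had shCtrl in between. The remaining genes had shCtrl outside the range, 19 beyond rABS and 37 beyond shAPE1. The count beyond rABS rested in part on 1 library, as it became 31 without shCtrl replicate 2. Positions form a continuum, with 171 genes between 0.25 and 0.35 and 146 between 0.65 and 0.75, so the classes are ranges and not separate kinds of gene.

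Falls and rises were sorted differently. Of the 891 falls, 343 (38.5%) had shCtrl level with rABS and 160 (18.0%) level with shAPE1. Of the 851 rises, 143 (16.8%) had it level with rABS and 348 (40.9%) level with shAPE1. The median position was 0.39 among falls and 0.64 among rises. The steps were also tested singly. In the class level with rABS, 337 of 486 genes were called only between the hairpins, and none only between shCtrl and rABS. A further 106 were called in both steps and 43 in neither. In the class level with shAPE1, 372 of 508 were called only between shCtrl and rABS, and none only between the hairpins. Here 69 were called in both steps and 67 in neither. A position within a level class thus does not mean that the smaller step was absent. In between, 396 of 692 were called in both steps, 63 only between the hairpins, 54 only between shCtrl and rABS, and 179 in neither. For genes called in neither step the position is a point estimate without a significant step.

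Rises with shCtrl level with shAPE1 stood apart in level and in gene type. These genes were weakly expressed: the median of the highest group mean was 1.59 CPM, against 18.2 CPM over all tested genes and 17.4 CPM for falls of the same class. Of those 346 rises with an annotated gene type, 56.6% were protein-coding, against 80.4% of all tested genes and 85.3% of the rises with shCtrl level with rABS. Counting error is large at such levels, and its part in the positions of these genes was not tested.

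**Figure D2:**
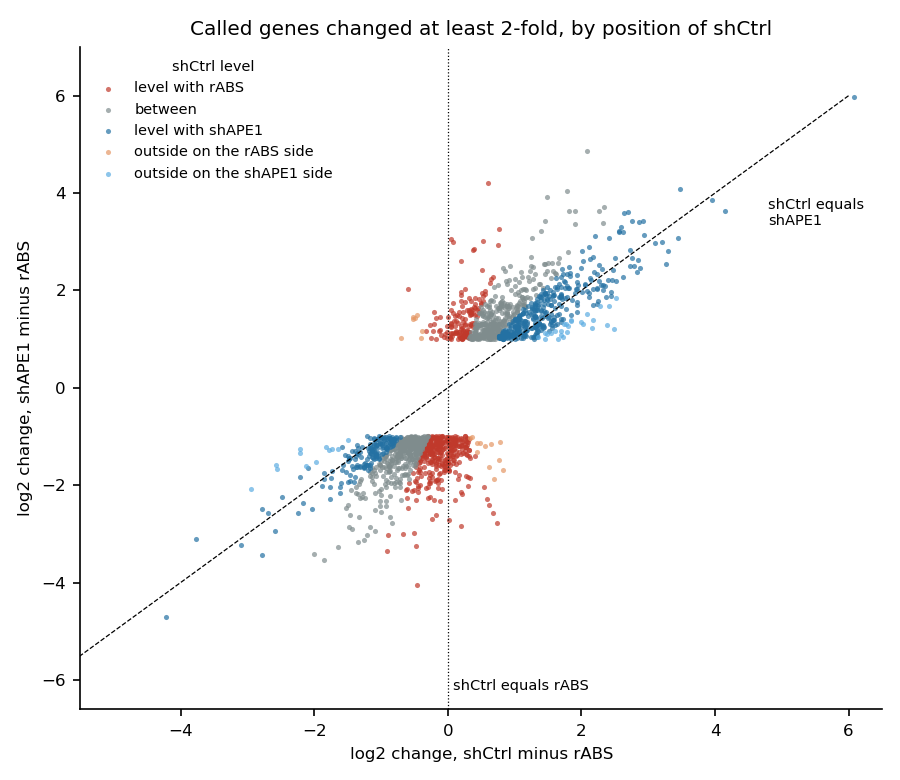
Fitted log2 change of shCtrl against rABS (horizontal) and of shAPE1 against rABS (vertical) for the 1742 genes called and changed at least 2-fold between shAPE1 and rABS. Each point is 1 gene coloured by the position of shCtrl; the dotted line marks shCtrl equal to rABS and the dashed line shCtrl equal to shAPE1, and both axes share the rABS libraries. Rises lie towards the dashed line and falls towards the dotted one, with median positions of 0.64 and 0.39.

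The falls with shCtrl level with rABS were mainly differences between the hairpins. MORF4L2, a chromatin factor gene (chromosome X, 103675496 to 103688158, minus strand), read 120, 118 and 125 CPM in rABS, then 122, 103 and 111 in shCtrl, then 24.8, 21.7 and 26.5 in shAPE1. The rABS and shCtrl libraries overlapped, and the shAPE1 libraries lay far below them (4.98-fold below rABS, adjusted p = 4.28e-20, position 0.05). CBX5, which encodes the heterochromatin protein HP1 alpha, fell 4.81-fold, from 442, 381 and 482 CPM to 88.6, 89.8 and 92.6, with 379, 338 and 349 in shCtrl. EPHB6, a kinase-inactive Eph receptor gene, fell 10.2-fold (17.2, 19.3 and 19.0 CPM to 2.21, 1.35 and 1.81). Its shCtrl libraries read 9.72, 9.67 and 10.1 CPM, 1.88-fold below rABS (edgeR adjusted p = 1.44e-06). LZTFL1, a gene of ciliary trafficking, fell 4.95-fold (adjusted p = 8.45e-12). With APEX1, these are the 5 largest falls of the class among genes at a mean of 5 CPM or more in rABS or shAPE1 whose libraries did not overlap, the rule by which genes of each class are named.

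Rises of this class included genes of immune signalling and of epithelial stress. LGALS9, the gene of galectin-9, a sugar-binding regulator of immune cells, rose 7.60-fold, from 11.3, 11.9 and 8.87 CPM to 77.6, 91.4 and 73.6, with 16.4, 16.5 and 20.8 in shCtrl. CCL5, a gene of a chemokine for T cells, rose 7.92-fold from a low level, 0.911, 1.05 and 0.756 CPM, to 7.08, 7.20 and 7.25. ACP3, the prostatic acid phosphatase gene, rose 7.21-fold, SPRR1A, a cornified envelope gene, 5.31-fold, and HSPB8, a small heat shock protein gene, 4.43-fold. All 5 had every shAPE1 library above every rABS and shCtrl library.

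Where shCtrl lay between, rABS, shCtrl and shAPE1 formed a staircase. MMP1, a collagenase gene, read 29.0, 22.9 and 27.6 CPM in rABS, then 8.40, 6.62 and 7.17 in shCtrl, then 2.46, 1.86 and 2.56 in shAPE1. No 2 of the 3 groups overlapped, and the 2 steps were of similar size (3.60-fold and 3.21-fold, 11.5-fold in all, adjusted p = 6.24e-19). KLK5, a secreted serine protease gene, fell 7.27-fold through the same order, from 87.1, 92.9 and 86.3 CPM to 29.2, 31.9 and 34.5 and then 12.3, 12.9 and 11.4. GAS6, whose product is the ligand of the receptor AXL, fell 5.29-fold, MAOB, a monoamine oxidase gene, 8.09-fold, and FAM222A 6.11-fold. KLK5, GAS6, MAOB and FAM222A were at 6.72, 1.5, 0.365 and 0.821 CPM in Parental, below their rABS levels. MMP1 was at 55.7 CPM in Parental, above its rABS level.

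SLC2A3, which encodes the glucose transporter GLUT3, rose along the same order, from 2.33, 1.75 and 2.62 CPM in rABS to 7.61, 6.91 and 9.21 in shCtrl and 28.8, 27.8 and 27.1 in shAPE1 (12.4-fold in all, adjusted p = 1.39e-17). It stood at 0.100 CPM in Parental. BNIP5 rose 15.1-fold to 14.9, 15.9 and 13.8 CPM, from 1.37, 1.11 and 0.504. CYP1A1, a monooxygenase gene induced through the aryl hydrocarbon receptor, rose 10.3-fold, HYAL1, a hyaluronidase gene, 9.35-fold, and SFTA2 5.87-fold. In Parental, BNIP5 and CYP1A1 stood at 3.60 and 3.24 CPM, above their rABS means of 0.992 and 0.551. HYAL1 and SFTA2 stood at 2.08 and 0.288 CPM in Parental, beside 2.21 and 0.883 in rABS. For each of these genes shCtrl differed from both neighbours at an adjusted p under 0.05.

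Where shCtrl was level with shAPE1, the survivors with the control hairpin already showed most of the difference. FOS (an AP-1 subunit gene) fell 10.8-fold, from 44.1, 47.5 and 43.1 CPM in rABS to 4.37, 3.66 and 4.44 in shAPE1, and shCtrl already read 5.76, 6.87 and 6.87. FOSB, its close relative, fell 9.38-fold, from 27.9, 20.8 and 25.3 CPM to 2.51, 2.87 and 2.5, with 2.96, 2.88 and 2.84 in shCtrl. The hairpins differed for FOS (1.57-fold, adjusted p = 1.76e-04), and for FOSB the test of that step missed the threshold (1.10-fold, adjusted p = 0.598). KRT6A, a stress keratin gene, fell 26.2-fold, from 8.71, 8.55 and 8.12 CPM to 0.352, 0.338 and 0.250, with 0.528, 0.467 and 0.348 in shCtrl. H4C11 and H4C12, histone H4 genes, fell 5.93- and 5.63-fold with shCtrl below shAPE1 in the mean. Replication-dependent histone transcripts mostly lack poly(A) tails and are near-identical copies, so their counts in poly(A)-selected libraries are uncertain.

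Rises of this class were QPRT, an enzyme gene of NAD synthesis (12.2-fold), ACSM3, a medium-chain acyl-CoA synthetase gene (9.41-fold), BAIAP2L2 (8.62-fold), UPK2, a uroplakin gene (7.03-fold), and JAK3, a cytokine receptor kinase gene (5.12-fold). ACSM3 read 1.65, 1.34 and 1.11 CPM in rABS, then 7.50, 7.04 and 9.66 in shCtrl, then 13.8, 12.4 and 12.3 in shAPE1. All 5 still differed between the hairpins, by 1.44- to 1.88-fold.

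A few genes had the fitted shCtrl level outside the range of the other groups. Of the 19 beyond rABS, 10 were called in both steps and 9 only between the hairpins. Of the 37 beyond shAPE1, 11 were called in both steps and 26 only between shCtrl and rABS. EIF5A2, a translation factor gene, read 19.1, 17.7 and 23.3 CPM in rABS, then 35.4, 30.5 and 31.2 in shCtrl, then 4.62, 5.57 and 6.25 in shAPE1. The shCtrl libraries were the highest and the shAPE1 libraries the lowest, and against rABS the fall was 3.68-fold (adjusted p = 3.62e-13) where against shCtrl it was 5.93-fold. SERTAD4 had the same order, at 3.07-fold below rABS. OAS2, an antiviral synthetase gene, and CXCL6, a neutrophil chemokine gene, were higher than rABS by 2.80- and 2.76-fold in shAPE1. For OAS2 the step from rABS to shCtrl missed the threshold (adjusted p = 0.142). On the other side, SNPH, the gene of syntaphilin, which anchors mitochondria, read 75.8, 77.3 and 75.8 CPM in rABS, then 16.3, 18.5 and 14.4 in shCtrl, then 28.3, 32.6 and 29.8 in shAPE1. TCP11L2 (2.47-fold) and YPEL2 (2.17-fold) rose and TCIM (2.86-fold) fell with shCtrl beyond shAPE1. The step between the hairpins missed the threshold for YPEL2 and TCIM (adjusted p = 0.102 and 0.176).

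DNA replication genes were lower in shAPE1 throughout. All 37 tested members fell (26.2% of all genes did), 26 of them at least 2-fold (5.64% of all genes), with a median log2 change of -1.22 against 0.00 over all tested genes. PCNA, the sliding clamp gene, read 447, 456 and 459 CPM in rABS, then 286, 284 and 292 in shCtrl, then 138, 121 and 132 in shAPE1. The 3 groups did not overlap, and PCNA fell 3.48-fold in all (log2 -1.80 ± 0.07, adjusted p = 4.12e-20). MCM2, a subunit of the replicative helicase, fell 3.88-fold (338, 347 and 308 to 83.3, 86.4 and 86.5 CPM), CDC45, which activates that helicase, 4.59-fold, and MCM7 2.66-fold. In 34 of the 37 members every rABS library was above every shCtrl library and every shCtrl library above every shAPE1 library, an order found in 6.02% of all genes tested. The position of shCtrl was in between for 27, level with rABS for 7, level with shAPE1 for 2 and outside on the rABS side for 1. In this and later lists positions are counted over called members at any fold, unlike the 2-fold sort above. Taken singly, 32 members fell and 1 rose from rABS to shCtrl, where 18.6% and 17.9% of all genes did so. From shCtrl to shAPE1 35 fell, where 18.8% of all genes did. PCNA, MCM2 and MCM7 remained above their Parental means of 80.5, 41.7 and 276 CPM in shAPE1. CDC45, at a mean of 9.83 CPM in shAPE1, was below its Parental mean of 15.8 CPM. In bulk RNA, fewer cells in S phase and less transcript per cell cannot be told apart.

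Regulators of entry into S phase were lower as well. E2F1, the transcription factor gene that drives S-phase genes and is itself one of them, read 84.3, 96.2 and 86.8 CPM in rABS, then 55.9, 61.7 and 60.9 in shCtrl, then 29.8, 36.7 and 30.2 in shAPE1 (2.76-fold lower, adjusted p = 9.72e-15). The retinoblastoma relative RBL1 fell 2.59-fold and the repressor E2F7 2.57-fold. Of 27 genes of G1 regulators and E2F, 17 fell and 5 rose, against 26.2% and 23.8% of all genes. CDKN1A, the gene of the inhibitor p21, fell 2.23-fold with shCtrl wholly at the shAPE1 level (127, 127 and 120 CPM in rABS, 58.2, 53.7 and 55.1 in shCtrl, 50.7, 62.2 and 54.6 in shAPE1).

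Promoters of PCNA, MCM2 and E2F1 are shown because these genes stepped down together and E2F factors act through a short element near the start site. The sequences run from 250 bases before to 50 bases after the start in RefSeq (GRCh38.p14), 5′ to 3′ on the gene's strand, with matches to TTTCCCGC, TTTGGCGC, TTTCGCGC or TTTGCCGC on either strand in capitals.
PCNA: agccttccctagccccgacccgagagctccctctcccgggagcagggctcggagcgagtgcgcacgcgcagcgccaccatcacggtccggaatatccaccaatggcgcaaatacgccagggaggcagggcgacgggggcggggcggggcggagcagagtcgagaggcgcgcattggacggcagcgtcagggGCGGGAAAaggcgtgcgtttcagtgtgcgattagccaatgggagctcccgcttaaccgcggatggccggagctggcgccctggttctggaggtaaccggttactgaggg
MCM2: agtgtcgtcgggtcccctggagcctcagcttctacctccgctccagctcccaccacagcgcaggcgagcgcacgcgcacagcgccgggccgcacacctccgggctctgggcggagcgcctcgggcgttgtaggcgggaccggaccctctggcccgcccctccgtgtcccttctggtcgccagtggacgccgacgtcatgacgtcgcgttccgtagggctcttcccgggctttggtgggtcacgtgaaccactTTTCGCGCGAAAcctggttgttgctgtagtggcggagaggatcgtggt
E2F1: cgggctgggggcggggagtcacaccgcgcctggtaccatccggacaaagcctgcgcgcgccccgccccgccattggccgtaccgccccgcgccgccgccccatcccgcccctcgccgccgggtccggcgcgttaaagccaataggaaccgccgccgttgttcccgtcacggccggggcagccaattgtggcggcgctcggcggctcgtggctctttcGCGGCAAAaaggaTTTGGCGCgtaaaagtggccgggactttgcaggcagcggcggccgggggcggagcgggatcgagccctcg
The PCNA window is chr20:5126573-5126872 (minus strand), that of MCM2 chr3:127598161-127598460 (plus strand) and that of E2F1 chr20:33686336-33686635 (minus strand). PCNA has 1 match, MCM2 has 2 that overlap, and E2F1 has 2 apart. Such a match was found in 16 of 30 DNA replication genes with a promoter in the table (53.3%), in 5 of 23 homologous recombination and Fanconi genes (21.7%), in 6 of 21 G1 regulators (28.6%) and in 580 of 11046 tested genes (5.25%). A match describes the sequence only and is not evidence of binding in these cells.

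Most repair genes fell too. In base excision repair 16 of 24 genes fell and none rose (median log2 -0.52), against 26.2% and 23.8% of all genes. APEX1, the target of the hairpin, is 1 of those 16. FEN1, the flap endonuclease gene, fell 2.96-fold (131, 133 and 127 CPM to 45.5, 37.1 and 49.8), the uracil glycosylase gene UNG 2.34-fold and the ligase gene LIG1 2.22-fold, all with shCtrl between. Of 26 genes of homologous recombination and the Fanconi pathway, 24 fell and none rose (median -0.87), against 26.2% and 23.8% of all genes. BRCA1 fell 2.70-fold, from 95.3, 96.6 and 95.5 CPM to 36.0, 30.9 and 39.6, with 68.8, 63.1 and 62.3 in shCtrl. The helicase gene BLM fell 2.84-fold, the exonuclease gene EXO1 2.63-fold and FANCI 2.39-fold. In end joining 10 of 16 genes fell and 3 rose (median -0.32), against 26.2% and 23.8% of all genes. PRKDC, the gene of the DNA-dependent protein kinase that bridges broken ends, fell 3.85-fold, from 810, 760 and 862 CPM to 215, 200 and 216, with 713, 629 and 686 in shCtrl. The position of shCtrl was 0.14 for PRKDC, beside 0.54 for FEN1 and 0.39 for BRCA1. The end-joining ligase gene LIG4 fell 2.80-fold from a low level, also with shCtrl level with rABS.

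Mitosis genes changed mostly downwards and by smaller folds. Of 33 members 24 fell and 2 rose, none by 2-fold (median log2 -0.34), against 26.2% and 23.8% of all genes. TOP2A, topoisomerase II alpha, fell 1.62-fold, BUB3, a spindle checkpoint gene, 1.63-fold, and the mitotic transcription factor gene FOXM1 1.52-fold. KIF20A, a kinesin gene of cytokinesis, rose 1.83-fold. In the separate steps, 12 members rose and 5 fell from rABS to shCtrl, where 17.9% and 18.6% of all genes did so. From shCtrl to shAPE1, 28 fell and 1 rose, where the shares over all genes were 18.8% and 17.8%. In 7 of the 26 called members shCtrl lay beyond rABS. As no member changed 2-fold, the shares of the 2-fold sort are no background for this count, and none is read from it.

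**Figure D3:**
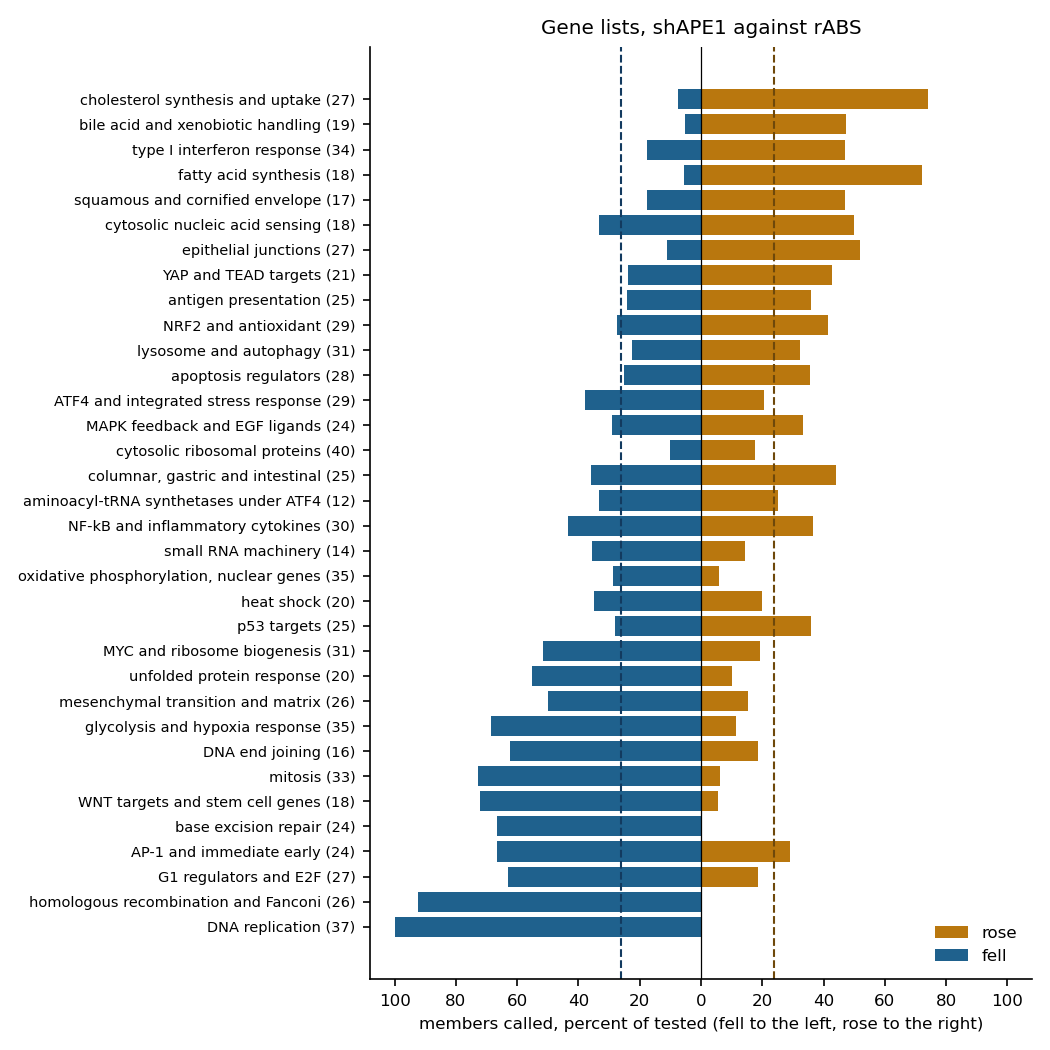
Share of the tested members of each gene list (number in brackets) that rose (right) or fell (left) in shAPE1 against rABS, ordered by median log2 change; dashed lines mark the 23.8% of all tested genes that rose and the 26.2% that fell. DNA replication genes fell throughout, and cholesterol and fatty acid synthesis genes rose in most cases.

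Most genes of lipid synthesis were higher in shAPE1. Of 27 genes that make or take up cholesterol, 20 rose and 2 fell (23.8% and 26.2% of all genes), 10 rose at least 2-fold, and the median log2 change was 0.57. SREBF2, the gene of the transcription factor SREBP2 that switches the pathway on when sterols are low, read 141, 149 and 144 CPM in rABS, then 375, 398 and 390 in shCtrl, then 566, 660 and 568 in shAPE1 (4.13-fold higher, adjusted p = 1.16e-20). The synthesis gene MSMO1 rose 3.30-fold (28.4, 29.0 and 31.4 to 96.7, 96.6 and 100 CPM), with 86.5, 74.0 and 80.0 in shCtrl. INSIG1, a sterol-sensing brake on the pathway, rose 2.62-fold. The higher level was mostly present with the control hairpin: 12 of the 22 called members had shCtrl level with shAPE1. That count takes members at any fold, and no share over all called genes is given beside it. From rABS to shCtrl 19 rose and 2 fell, where 17.9% and 18.6% of all genes did so. From shCtrl to shAPE1, 9 rose and 6 fell, where the shares over all genes were 17.8% and 18.8%.

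Among 18 fatty acid genes 13 rose and 1 fell (median 0.35), against 23.8% and 26.2% of all genes. SCD, the desaturase gene that makes monounsaturated fatty acids, read 582, 573 and 588 CPM in rABS, then 1214, 1212 and 1231 in shCtrl, then 2166, 2247 and 2137 in shAPE1. Its steps of 2.10- and 1.79-fold gave 3.76-fold in all (adjusted p = 4.10e-21), and the 3 groups did not overlap. The carboxylase gene ACACA rose 1.82-fold and the synthase gene FASN 1.64-fold. SREBF1, the gene of the fatty acid regulator SREBP1, rose 2.03-fold with shCtrl level with rABS (163, 166 and 160, then 172, 199 and 193, then 302, 379 and 311 CPM), unlike SREBF2.

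Of 34 genes of the type I interferon response 16 rose and 6 fell (median 0.42), against 23.8% and 26.2% of all genes, and most calls in the first step were falls and in the second rises. From rABS to shCtrl 11 members fell and 2 rose, where 18.6% and 17.9% of all genes did so. From shCtrl to shAPE1 22 rose and 2 fell, where the shares over all genes were 17.8% and 18.8%. IFIT2, an antiviral RNA-binding protein gene, rose 4.25-fold, from 4.44, 4.60 and 4.03 CPM to 22.1, 15.1 and 18.1, with 8.61, 7.68 and 9.95 in shCtrl. IFIT3 rose 2.54-fold (10.9, 10.2 and 9.43 to 27.2, 23.6 and 26.6 CPM), the helicase gene DDX60 2.10-fold and SAMD9L 1.98-fold.

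The promoters of IFIT3 and DDX60 are shown for their matches to the interferon-stimulated response element through which interferon-activated factors act, here searched as GAAA, any 2 bases and a second GAAA, on either strand, and shown in capitals in the same RefSeq window.
IFIT3: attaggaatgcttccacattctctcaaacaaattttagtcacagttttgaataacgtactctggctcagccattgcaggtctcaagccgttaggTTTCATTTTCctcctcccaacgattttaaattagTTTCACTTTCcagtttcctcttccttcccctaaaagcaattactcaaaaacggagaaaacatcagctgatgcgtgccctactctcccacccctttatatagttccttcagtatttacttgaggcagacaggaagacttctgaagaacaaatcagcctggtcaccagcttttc
DDX60: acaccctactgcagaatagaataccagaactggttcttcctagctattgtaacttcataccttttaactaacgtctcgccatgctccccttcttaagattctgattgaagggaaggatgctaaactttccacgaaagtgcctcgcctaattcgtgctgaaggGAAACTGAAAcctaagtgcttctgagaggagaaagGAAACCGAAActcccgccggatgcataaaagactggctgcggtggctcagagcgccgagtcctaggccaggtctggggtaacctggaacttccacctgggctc
They lie at chr10:89327747-89328046 (plus strand) and chr4:168318703-168319002 (minus strand), with 2 matches each. Of the 26 interferon genes with a promoter, 18 had a match (69.2%), against 2.74% of all tested genes with one. A match says nothing of which factor was bound.

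Sensors of nucleic acids were called in both directions, with 9 of 18 higher and 6 lower, against 23.8% and 26.2% of all genes. CGAS, the DNA sensor gene, fell 1.58-fold with shCtrl level with rABS (91.8, 85.0 and 88.0 CPM to 58.1, 51.4 and 58.1). MAVS, the adaptor gene of RNA sensing, rose 1.49-fold, and RNASEH2A, a gene of the enzyme that removes RNA from DNA, fell 2.34-fold. Of 25 genes for presenting antigen, 9 rose and 6 fell, and the share that fell is near that of all genes. HLA-B fell 1.45-fold with shCtrl beyond the shAPE1 level, while CD74, the invariant chain gene of class II, rose 2.04-fold with shCtrl near rABS (56.2, 55.2 and 53.4, then 56.3, 63.5 and 66.5, then 101, 131 and 105 CPM). HLA genes are similar in sequence, so their reads may be shared.

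NF-kB and cytokine genes moved both ways, with 11 of 30 higher and 13 lower, against 23.8% and 26.2% of all genes. NFKB1 fell 2.05-fold, from 81.2, 83.0 and 81.9 CPM to 42.1, 40.0 and 38.1, with shCtrl level with rABS. The neutrophil chemokine gene CXCL8 fell 2.43-fold, mostly from rABS to shCtrl, and the cytokine gene IL18 rose 3.30-fold in even steps.

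AP-1 and immediate early genes, which respond quickly to growth and stress signals, numbered 24, of which 16 fell and 7 rose (median -0.56). Over all genes tested 26.2% fell and 23.8% rose. Besides FOS and FOSB, EGR1 fell 3.81-fold (231, 199 and 216 CPM in rABS, 73.1, 83.9 and 72.7 in shCtrl, 53.9, 61.0 and 54.9 in shAPE1) and IER2 2.88-fold. JUN had another order. It read 66.0, 73.6 and 56.4 CPM in rABS, then 16.8, 16.8 and 17.2 in shCtrl, then 34.4, 33.1 and 33.9 in shAPE1. It was thus lower than rABS in both transduced groups, with the APE1 hairpin above the control hairpin (2.00-fold, adjusted p = 1.36e-09). MYC rose 1.80-fold, from 666, 649 and 638 CPM to 1153, 1208 and 1150, with 717, 753 and 763 in shCtrl. Of 31 MYC and ribosome biogenesis genes 16 fell and 6 rose, and the share that rose is near that of all genes. The polyamine enzyme gene ODC1 fell 2.16-fold, MXD4, a gene of a MAX partner that opposes MYC, rose 2.24-fold, and MXD1 fell 1.81-fold.

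**Figure D4:**
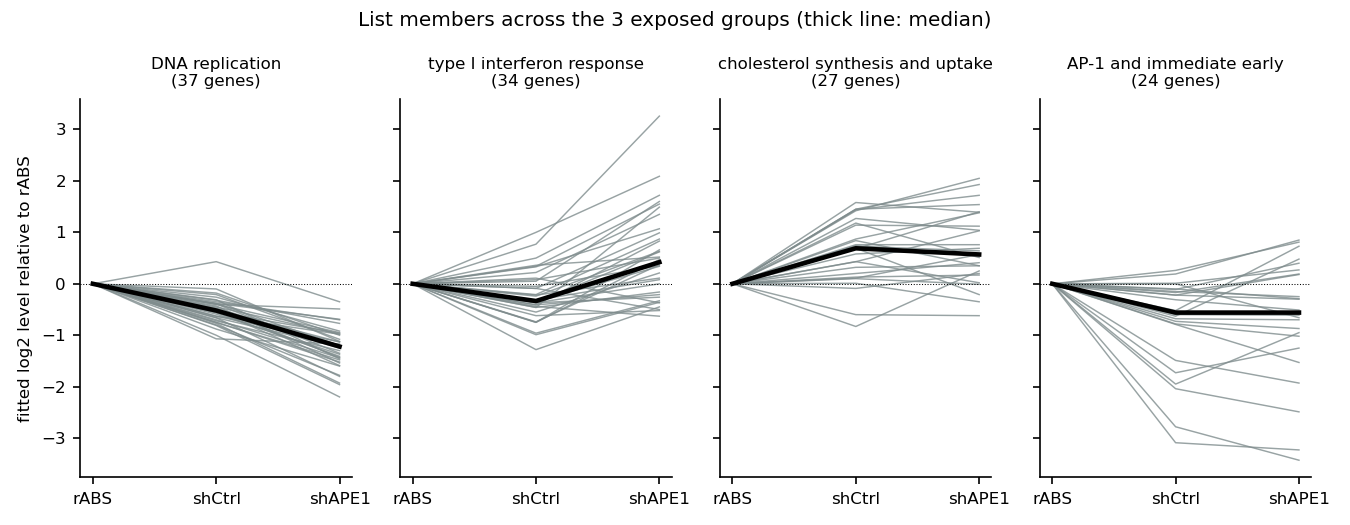
Fitted log2 level relative to rABS in rABS, shCtrl and shAPE1 for every tested member of 4 gene lists (thin lines) with the median (thick line). The DNA replication median steps down to -0.52 and then -1.22, the interferon median runs through -0.34 to 0.42, the cholesterol median is 0.69 and 0.57, and the AP-1 median is -0.56 in both transduced groups.

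For the integrated stress response, the comparison with rABS hid opposite steps. ATF4, the transcription factor gene of this response to amino acid shortage and ER stress, read 126, 119 and 126 CPM in rABS and 125, 132 and 130 in shAPE1, with shCtrl far above both at 198, 216 and 201. Between shAPE1 and rABS its log2 difference of 0.06 ± 0.07 missed the threshold (adjusted p = 0.474), while it rose 1.65-fold from rABS to shCtrl and fell 1.59-fold from shCtrl to shAPE1. ASNS, asparagine synthetase, rose 1.74-fold from 22.4, 22.5 and 20.5 CPM to 36.6, 38.7 and 38.6, with 89.0, 78.7 and 85.8 in shCtrl and 660 CPM in Parental. PSAT1, of serine synthesis, fell 2.04-fold, the one-carbon enzyme gene MTHFD2 1.65-fold and the arginine transporter gene SLC7A1 1.59-fold. Of 29 members, 6 rose and 11 fell (median 0.03), against 23.8% and 26.2% of all genes. In the steps, 16 rose and 2 fell from rABS to shCtrl, where 17.9% and 18.6% of all genes did so. Between the hairpins 4 rose and 17 fell, where the shares over all genes were 17.8% and 18.8%.

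Unfolded protein response genes, which serve folding in the endoplasmic reticulum (ER), were mostly lower, with 11 of 20 down and 2 up (median -0.20). Over all genes tested 26.2% fell and 23.8% rose. HSPA5, the main ER chaperone gene, fell 1.82-fold with shCtrl lowest (609, 637 and 597, then 288, 268 and 281, then 338, 335 and 338 CPM). EDEM1, of ER-associated degradation, fell 2.47-fold with shCtrl highest, and CRELD2 and DNAJB11 fell 3.72- and 2.81-fold with shCtrl between. Among heat shock genes, 4 of 20 rose and 7 fell, and the share that rose is near that of all genes. HSPB1 rose 2.49-fold and HSPA8 fell 1.56-fold. Of 29 NRF2 and antioxidant genes, 12 rose and 8 fell, and the share that fell is near that of all genes. FTH1, the ferritin heavy chain gene, rose 2.02-fold (1443, 1587 and 1511 to 2930, 3418 and 2818 CPM), and GCLM, of glutathione synthesis, fell 2.28-fold.

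In the glycolysis and hypoxia list of 35 genes, 24 fell and 4 rose (median -0.28), against 26.2% and 23.8% of all genes. SLC2A3 was among the rises. LDHA, lactate dehydrogenase A, fell 1.82-fold, from 1203, 1307 and 1221 CPM to 711, 619 and 714, and PGK1 1.71-fold. ALDOC, an aldolase gene, rose 2.71-fold. Of the 28 called members, shCtrl was level with shAPE1 in 11 and beyond it in 7. These take members at any fold, and no share over all called genes is given beside them.

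Matrix genes fell more often than they rose. Of 26 mesenchymal and matrix genes, 13 fell and 4 rose, against 26.2% and 23.8% of all genes. VCAN, a matrix proteoglycan gene, fell 3.78-fold (231, 205 and 240 to 61.2, 56.9 and 60.6 CPM, 8.60 in Parental). TGFBI, another matrix gene, fell 2.15-fold, and CD44, the hyaluronan receptor gene, 2.28-fold. Fibroblast marker sums, given above, were higher and not lower in shAPE1, at a level of a few CPM. Among YAP and TEAD targets 9 of 21 rose and 5 fell, and the share that fell is near that of all genes. NT5E, an adenosine-producing ectoenzyme gene, fell 4.19-fold with shCtrl level with rABS (191, 195 and 207, then 197, 177 and 185, then 45.9, 43.9 and 51.8 CPM). AXL fell 2.78-fold against rABS, and since shCtrl was higher than rABS (97.7, 106 and 104 against 63.3, 58.2 and 61.0 CPM) the hairpins differed by 4.70-fold. CCN2, a matricellular gene, fell 4.71-fold from 9.17, 7.04 and 6.0 CPM.

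Of 18 WNT target and stem cell genes, 13 fell and 1 rose (median -0.43), against 26.2% and 23.8% of all genes. TCF7, a WNT transcription factor gene, was down 2.68-fold and the feedback gene AXIN2 down 1.73-fold. LGR4, a receptor gene that enhances WNT signalling, was the rise (1.56-fold). Among 27 epithelial junction genes, 14 rose and 3 fell (median 0.19), against 23.8% and 26.2% of all genes. CLDN1 and TJP3, of tight junctions, rose 2.33- and 2.35-fold, and JUP, plakoglobin, rose 1.52-fold from 10605, 10692 and 10448 CPM to 15274, 17824 and 15183. MUC5AC, which encodes a gastric mucin, fell 4.29-fold (155, 125 and 151 to 35.7, 32.3 and 32.0 CPM), the intestinal mucin gene MUC2 2.53-fold with shCtrl at the shAPE1 level, and the membrane mucin gene MUC1 rose 2.29-fold. In that list of 25 columnar, gastric and intestinal genes 11 rose and 9 fell, against 23.8% and 26.2% of all genes. Of 17 squamous genes 8 rose and 3 fell, against 23.8% and 26.2% of all genes. All 3 falls were at least 2-fold, in the keratin genes KRT6A (26.2-fold) and KRT6B (7.69-fold) and the protease gene KLK5 (7.27-fold), and 2 of the 8 rises were, in SPRR1A (5.31-fold) and CNFN (2.94-fold), genes of the cornified envelope. KRT6B and CNFN were named after their values were seen, to complete these counts. SPRR3 rose 1.82-fold.

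Growth factor and survival genes were called in both directions. In the MAPK, apoptosis, p53 and lysosome lists the share that fell was near the 26.2% of all genes and the share that rose somewhat above the 23.8%, so no direction is read from these counts. Of 24 MAPK feedback and EGF ligand genes 8 rose and 7 fell. DUSP6, a phosphatase gene that reports ERK activity, fell 2.67-fold with shCtrl level with rABS (70.8, 70.7 and 75.6, then 80.3, 72.2 and 65.9, then 26.5, 28.7 and 26.3 CPM). The EGF receptor ligand genes EREG and AREG rose 2.14- and 1.90-fold. Among 28 apoptosis regulators 10 rose and 7 fell: BMF, a pro-apoptotic BH3-only gene, rose 3.03-fold and BCL2, anti-apoptotic, fell 2.25-fold. Of 25 p53 targets 9 rose and 7 fell, and TP53INP1, a stress-induced p53 partner gene, rose 3.27-fold from 1.82, 1.11 and 1.87 CPM. Of 31 lysosome and autophagy genes 10 rose and 7 fell, with GABARAPL1, an autophagosome protein gene, up 2.93-fold.

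The ribosomal protein, oxidative phosphorylation and aminoacyl-tRNA synthetase lists held no called change of at least 2-fold. Of 40 cytosolic ribosomal protein genes 7 rose and 4 fell, beside 23.8% and 26.2% of all genes. Of 35 nuclear genes of oxidative phosphorylation 2 rose and 10 fell, and the share that fell is near the 26.2% of all genes. ATP5MC3 was down 1.78-fold. Of 12 aminoacyl-tRNA synthetase genes, 3 rose and 4 fell, both near the shares of all genes.

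In the small RNA machinery, of interest because both transduced groups express a hairpin, 2 of 14 genes rose and 5 fell. Over all genes tested 23.8% rose and 26.2% fell. DGCR8, of the nuclear microprocessor, fell 2.37-fold (51.7, 49.8 and 49.1 CPM in rABS, 19.4, 25.8 and 20.5 in shCtrl, 20.3, 22.1 and 21.3 in shAPE1), and the step between the hairpins missed the threshold (1.03-fold, adjusted p = 0.769). DICER1 fell 1.24-fold. Of 19 genes of bile acid and xenobiotic handling, 9 rose and 1 fell (median 0.43), against 23.8% and 26.2% of all genes. The rise was at least 2-fold in 3 of them (5.38% of all genes): CYP1A1 (10.3-fold), CYP27A1 (2.90-fold) and CYP1B1 (2.71-fold), all cytochrome P450 genes, of which CYP27A1 was named after its value was seen. CYP24A1, which degrades vitamin D, rose 1.63-fold and the exporter gene ABCG2 1.92-fold.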

How the data were processed

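Poly(A) RNA of OE33 cells was sequenced in 12 libraries, 3 per group, which the submitters describe as independent biological replicates. The authors deposited 1 table of raw read counts per gene. Per the submitters' processing notes, reads were trimmed with Trimmomatic 0.36, aligned to GRCh38 with STAR 2.5.2b and summed per gene by featureCounts (Subread 1.5.2). Strand setting, annotation release and handling of multiply aligned reads: not given in the sources used here. Overlapping and antisense genes therefore cannot be told apart.

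Counts of all 12 libraries were fitted in R 4.3.3 with edgeR 4.0.16 (TMM scaling, filterByExpr with a minimum count of 10, robust quasi-likelihood test), so that all 4 groups share 1 estimate of the spread. Each contrast was adjusted by Benjamini-Hochberg over the 15805 genes tested and called at 0.05. CPM values are scaled by TMM, except the marker sums, which are scaled to library size alone. Positions and gene types are those of GENCODE 29. The sort by position of shCtrl took called genes changed at least 2-fold, with bounds at 0.3, 0.7 and 1.3. In the gene lists, positions were counted over called members at any fold, so many rest on small differences. The share of each position over all called genes is not given, and the shares of the 2-fold sort belong to another set. The script was tested on simulated counts. Alternatives were DESeq2 1.42.0, limma 3.58.1, other scalings and filters, a test against 1.2-fold, a replicate block, each rABS, shCtrl or shAPE1 library left out, and the Parental libraries left out together.

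Genes named are APEX1, the 5 largest rises and falls in each of the 3 main positions and 2 in each outside position (5 CPM or more, no overlap between rABS and shAPE1 libraries), and for each of 34 gene lists its first member and up to 4 with the smallest adjusted p. The comparison, the lists and the tests were chosen with earlier results of these data known. A few genes that this rule names are not reported here.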

Additional observations from a re-analysis of the deposited data

How the results depend on the processing

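The fall of APEX1 kept its direction and call under every alternative run, with log2 changes from -4.20 to -3.99 and a largest adjusted p of 2.43e-18. Upper-quartile factors turned the balance of calls, with 4301 rises and 3586 falls, and moved the median of all genes by 0.059. A test against 1.2-fold left 2342 rises and 2670 falls. Position classes depended on their limits. Bounds of 0.2, 0.8 and 1.2 left 292 genes level with rABS and 318 level with shAPE1, with 47 beyond rABS and 65 beyond shAPE1. Taking called genes changed at least 1.5-fold gave 1118, 1504 and 1059 genes in the 3 main classes and 118 and 111 outside. Leaving out each rABS, shCtrl or shAPE1 library in turn gave 3291 to 3749 rises and 3723 to 4166 falls, and leaving out the Parental libraries together 3938 and 4096. The single libraries left out gave 429 to 519 genes level with rABS, 664 to 764 between, 424 to 542 level with shAPE1, 15 to 31 beyond rABS (31 without shCtrl replicate 2) and 26 to 48 beyond shAPE1. Of 176 other named genes, 10 lost their call under at least 1 alternative. HSF1 (log2 -0.09 to 0.07 with each of those libraries left out, lowest without shAPE1 replicate 2) and TFEB (-0.02 to 0.15, lowest without rABS replicate 1) changed sign and were not called. The cause of these shifts was not tested. Deviations of same-numbered libraries correlated at -0.167 to 0.109, so the numbers were not taken to pair the samples, and not every rABS library correlated best with its own number in shAPE1. With the replicate block 3598 genes rose and 4006 fell. The 6 libraries fitted alone give no position. With 3 libraries per group the exact test of a single gene cannot reach 0.05.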
